A study of Drosophila melanogaster with 2 samples.

Results

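The 10 genes described here, *ey*, *toy*, *so*, *eya*, *dac*, *Optix*, *eyg*, *toe*, *dan* and *danr*, form the retinal determination network of the fruit fly, out of 13968 protein-coding genes annotated on the named chromosome arms. They were taken as a fixed list of the regulators that specify the eye field upstream of Rough. Binding of Rough, the homeodomain factor encoded by *ro*, was mapped by chromatin immunoprecipitation and sequencing (ChIP-seq) and deposited as lists of peaks. There was 1 group of 2 biological replicates, whole embryos 0 to 24 h old of the strain ro-GFP, which carry a transgene for Rough fused to eGFP, pulled down through the GFP tag with an anti-GFP antibody. All samples carried the transgene, no control sample was analysed here, and the regulatory sequence that drives the fusion is not given in the labels. Each library pools every tissue and all ages of the collection.

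A peak was assigned to a gene when its summit lay in the gene body, within 10 kb of it, or nearest to its start among all protein-coding starts. Each of the 8 lists gives peaks with the authors' signal value, which ranks peaks within a list. For each replicate and for both together there is a long ranked list of candidates and a short thresholded list. The thresholded peaks have an irreproducible discovery rate (IDR) of at most 0.01, which is 2 on the −log10 scale. The larger list over both replicates, here the optimal set, had 1969 peaks with a median signal value of 102, and the stricter conservative set had 1627. The lists of single replicates had 1484 peaks (replicate 1, median 69.8) and 1113 peaks (replicate 2, median 65.7). Read totals are not in the lists, so the depth is unknown.

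Retinal determination runs as a hierarchy with feedback. The Pax6 proteins Eyeless and Twin of eyeless switch on *so*, *eya* and *dac*, whose products work together to commit cells to retinal fate, and Rough acts later, in differentiating photoreceptors behind the morphogenetic furrow. In the embryo the same genes act in the head, the brain and the primordia of the visual system, and several of them also act outside it.

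By the 10 kb assignment a smaller share of these genes than of all genes had a thresholded Rough peak. By nearest start in the optimal set the share was close to that of all genes. Weaker candidates were, at the median, about as dense as at other genes, with fewer at *ey* and *toy*. In the optimal set 1 of the 10 genes, *dan*, had a peak, against 36.0% of all protein-coding genes, and it was a single peak upstream of the gene. By nearest start alone it was also 1 of 10, against 10.4% of all genes. With 20 kb on each side it was 5 of 10, against 52.2%. None of the 10 had a thresholded peak inside its body in any of the 4 thresholded lists, against 6.01% of all genes in the optimal set. *dan* and *toy* had 1 peak each in the list of replicate 1, and none of the genes had one in the list of replicate 2 or in the conservative set. The shares of all genes were 28.7% in the list of replicate 1, 25.8% in that of replicate 2 and 31.9% in the conservative set. These are counts over genes, and no test was made of them.

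The windows that carry these peaks are printed to show what lay under the summits. Those of the strongest candidates at *eyg* and *eya*, the genes at which both replicates had their strongest candidate at the same place, are printed beside them and were chosen after their values and words were seen. They come from the RefSeq copy of the Release 6 assembly, the sequence of dm6, with each window reaching 50 bp to either side of the summit on the plus strand. Capitals mark the word TAAT, the core of many homeodomain sites, on either strand, and any of 7 longer words. These were TAATTA for homeodomain factors, which overlaps TAAT, then TGATAC for Sine oculis family factors, GAGAG for GAGA factor, CAGGTA for Zelda, TATCGATA for the DREF element, CACGTG for the E-box and TTTATG for Caudal.
dan, optimal-set peak, chr3R:25178689-25178789: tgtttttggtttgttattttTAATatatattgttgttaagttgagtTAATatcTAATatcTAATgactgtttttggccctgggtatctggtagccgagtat
toy, peak of replicate 1, chr4:982858-982958: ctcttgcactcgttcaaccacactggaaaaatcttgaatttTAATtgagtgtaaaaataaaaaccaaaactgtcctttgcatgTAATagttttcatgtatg
eyg, strongest candidate, chr3L:12457447-12457547: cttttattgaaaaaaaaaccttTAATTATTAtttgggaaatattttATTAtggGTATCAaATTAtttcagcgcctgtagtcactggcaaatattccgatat
eya, strongest candidate, chr2L:6551309-6551409: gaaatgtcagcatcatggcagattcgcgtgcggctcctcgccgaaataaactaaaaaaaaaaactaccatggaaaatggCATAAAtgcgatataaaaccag

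The *dan* window held TAAT at 4 places, 3 of them in a row within its middle, and none of the 7 longer words. Among the 1883 optimal-set windows of the same length on the named arms, 20.3% held TAAT at 4 or more places and 76.4% at 1 or more; counting TAAT was a choice made after seeing the sequences. A and T made up 70.3% of the *dan* window, against 65.6% ± 10.8 over all these windows (SD, n = 1883). The *toy* window held TAAT at 2 places. The *eyg* window held both TAATTA and the Sine oculis type word TGATAC, read on the other strand as GTATCA. Among windows of all candidates of the optimal ranking on the named arms, 4.72% held TAATTA and 2.01% held TGATAC. The *eya* window held TTTATG, read on the other strand as CATAAA, which lay in 9.24% of these candidate windows. Of the strongest candidates whose windows are not printed, that of *ey* also held TTTATG, and those of *dac*, *toe* and *danr* held none of the 7 words. The windows of the strongest candidates of *so* and *Optix* were not looked up singly. A match is a description of these letters and no evidence of binding.

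The single peak of *dan* was of middling strength and rested mainly on replicate 1. *dan* (distal antenna, FBgn0039286, 3R from 25184383 to 25192806, plus strand) encodes a nuclear protein with a pipsqueak-type DNA-binding domain that acts with its paralogue *danr* in antenna and eye. The peak, 3R from 25178549 to 25178928, had its summit 5644 bp upstream of the start of *dan*, inside an intron of *lobo*. Its signal value was 99.4 in the optimal set, rank 1026 of 1969, and its q value was 0.0536. In replicate 1 the same place reached 65.3, rank 830 of 1484 thresholded peaks and 883 of 93400 candidates, with q = 0.0096. In replicate 2 an overlapping candidate reached 26.6, rank 7680 of 121684, with q = 0.844 and a −log10 IDR of 0.258. The peak therefore passed the IDR threshold in replicate 1, at 2.16, and in the optimal ranking, at 2.07, but not in replicate 2. In the conservative ranking its −log10 IDR was 1.70. It was not in the conservative set.

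Read against all genes, the count by nearest start lay close to the background share, and by the wider assignment it lay below it in each of the 4 lists. Longer genes hold more peaks, and 9 of the 10 genes belong to the longest of 4 equal length classes of protein-coding genes (5000 bp or more), in which 44.7% had an optimal-set peak. *danr*, in the second class (1179 to 2164 bp), is the exception, and there the share was 34.8%. Among the 10 genes, *eyg* lies near *toe* and *dan* lies near *danr*. The 10 genes were also not drawn at random, so the difference in shares was not tested.

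**Figure D1:**
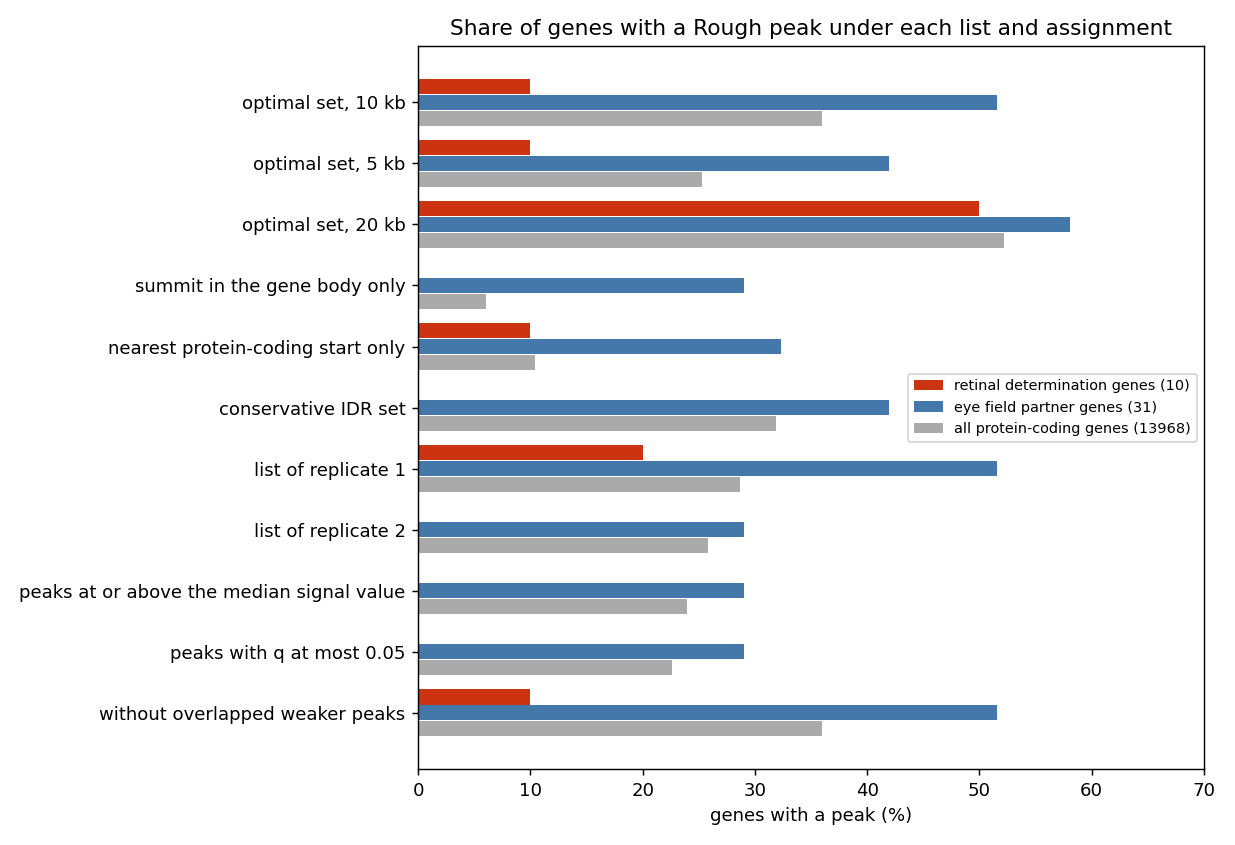
Share of genes with a Rough peak (horizontal axis, percent) for the 10 retinal determination genes, 31 eye field partner genes and all 13968 protein-coding genes, under each list and assignment. Both gene lists were chosen with earlier results of these data known. The retinal determination genes come close to the share of all genes at 20 kb, with 5 of 10 genes against 52.2%, and by nearest start, with 1 of 10 against 10.4%, and lie below it under the other settings; a missing bar is 0.

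The genes *eya*, *dac*, *Optix* and *toe* had optimal-set peaks just beyond 10 kb, and each of these lay nearest to the start of another gene. Widening the territory to 20 kb gave 7 peaks at 5 genes, 6 of them beyond 10 kb. Upstream of *eya* the peak lay 15.2 kb from the gene body, with a signal value of 243 (rank 198), and its summit was 68 bp from the start of *Trmt6*. *Optix* had a peak on both sides, at 16.9 kb with a signal value of 213, nearest to *CG14762*, and at 18.5 kb with 442 (rank 49), in an intron and nearest to *CG12769*. The peak of *eya* and both peaks of *Optix* overlapped thresholded peaks of both replicates. *dac* had peaks at 14.6 kb (110, nearest to *Tpr2*) and 17.8 kb (127, nearest to *CG5888*), and *toe* had one at 15.3 kb (96.6, nearest to *SCaMC*). Those 3 peaks were each in the list of 1 replicate.

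For the remaining genes the nearest optimal-set summit was further off. The distance from gene body to summit was 38.8 kb for *danr*, whose nearest peak is that of *dan*, and 46.8 kb for *eyg*. It was 84.3 kb for *so*, 86.4 kb for *ey* and 182 kb for *toy*. Chromosome 4, which holds *ey* and *toy*, had only 1 optimal-set peak, and 1.25% of its 80 protein-coding genes had a peak. The distances of *ey* and *toy* are therefore both to that 1 peak. Over all protein-coding genes the median distance was 18.5 kb and the third quartile 48.1 kb. Thus 5 genes, *dan*, *dac*, *eya*, *toe* and *Optix*, lay closer to a peak than the median gene and 5 lay further away. Between 87.6% and 95.7% of all genes lay closer to a peak than *so*, *ey* and *toy* did.

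**Figure D2:**
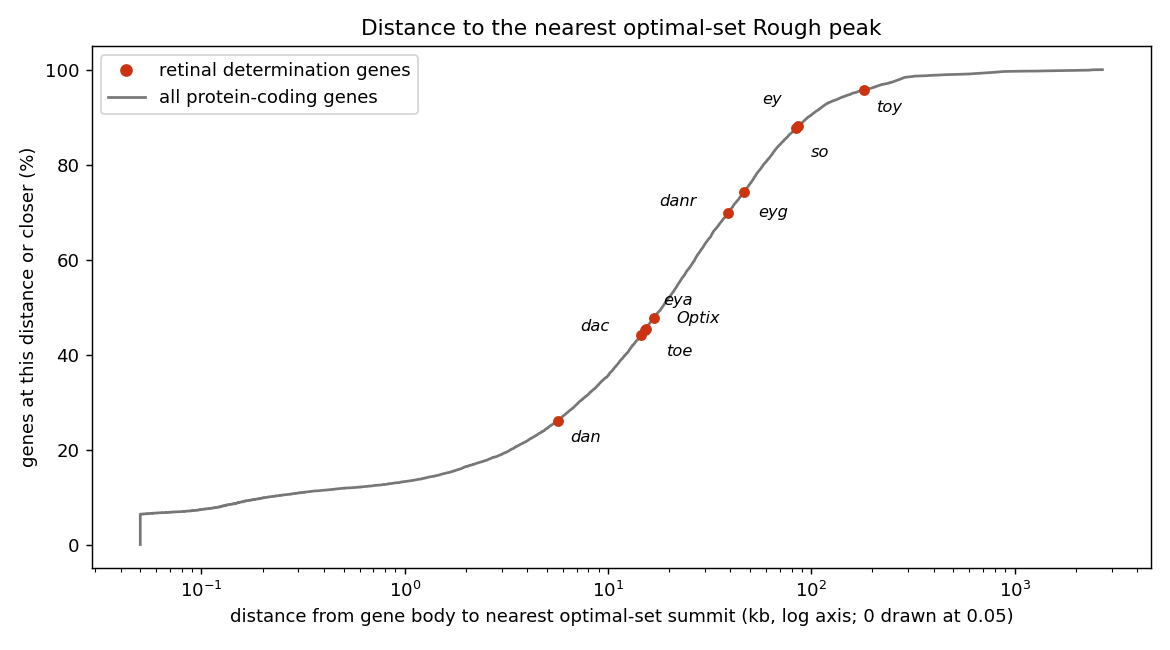
Distance from the gene body to the nearest optimal-set summit (horizontal axis, kb, log scale) against the share of genes at that distance or closer (vertical axis, percent), with the 10 genes as points on the curve of all protein-coding genes. *dan* sits at 5.64 kb, 4 genes sit between 14.6 and 16.9 kb, and *toy* is furthest at 182 kb.

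The Pax6 genes *ey* and *toy*, at the top of the network, lie on chromosome 4, where candidates of any strength were few. *toy* (FBgn0019650, 4 from 989725 to 1007922) had a thresholded peak in replicate 1, at 4 from 982730 to 983085. Its signal value was 88.9, rank 485 of 1484, with q = 0.00488 and a −log10 IDR of 4.09. The summit was intergenic, 6817 bp upstream of *toy* and 4419 bp upstream of the start of *fuss*, a Ski/Sno family gene, which is the nearer start. No candidate of replicate 2 and none of either ranking over both replicates overlapped it. In replicate 1 *toy* had 6 candidates in all, of which the second strongest had a signal value of 22.5, and in replicate 2 it had none.

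*ey* (FBgn0005558, 4 from 697689 to 721173) had 14 candidates in replicate 1, all inside its body, and none in replicate 2. The strongest reached a signal value of 25.9 (rank 7366 of 93400), with its summit 313 bp upstream of one of the 3 annotated starts of *ey*. In the optimal ranking *ey* had 4 candidates, the strongest at 34.1, 195 bp upstream of the same start. Chromosome 4 as a whole had 203 candidates in replicate 1 and 45 in replicate 2, or 151 and 33.4 per Mb. Arms 2L, 2R, 3L, 3R and X had between 596 and 727 per Mb in replicate 1 and between 843 and 961 in replicate 2. In replicate 2 only 11.2% of the 80 protein-coding genes of chromosome 4 had any candidate. The part of this shortage in the values of *ey* and *toy* was not tested.

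The Sine oculis homeobox family genes *so* and *Optix* had candidates within 500 bp of their own starts in both replicates. None of these candidates reached the threshold. *eya*, *toe* and *danr* also had such candidates in both replicates. Such a candidate was common among all protein-coding genes, at 54.8% in replicate 1 and 71.2% in replicate 2. Among the 10 genes it was 7 and 5. *so* (sine oculis, FBgn0003460, 2R from 7419350 to 7434872) encodes the homeodomain partner of Eya. Its strongest candidate in replicate 1 had a signal value of 31.5 (rank 3750 of 93400) with the summit 346 bp upstream of the start. The overlapping candidate of replicate 2 had 25.7 (rank 9058 of 121684), and the 2 summits were 263 bp apart. That candidate of replicate 2 lay more than 500 bp from the start. Within 500 bp the strongest one of replicate 2 had 22.3 (rank 16306), 214 bp upstream. In the optimal ranking the strongest candidate of *so* was another one, in coding sequence near the 3′ end, at 56.0 (rank 3621 of 144610), with a −log10 IDR of 0.122. The highest −log10 IDR of any candidate of *so* in that ranking was 1.02. In the conservative ranking the same candidate had 0.737 and the highest value was 1.29.

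*Optix* (FBgn0025360, 2R from 8031283 to 8042529) encodes the family member that acts without Eya. It had a signal value of 39.4 in replicate 2 (rank 1724 of 121684) at an intronic candidate 903 bp upstream of an internal start. That was the strongest candidate of any of the 10 genes in replicate 2, and its −log10 IDR was 1.43. In replicate 1 the strongest was elsewhere, 496 bp upstream of another start, at 25.6 (rank 7707 of 93400), where replicate 2 had 21.4. In the optimal ranking *Optix* had 52 candidates, 1.66 per kb, the densest of the 10 genes.

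*eya* and *dac* encode the coactivator that pairs with Sine oculis and a nuclear factor that acts with it. At *eya* (FBgn0000320, 2L from 6527447 to 6546976, minus strand) both replicates placed their strongest candidate at the same spot. The signal values there were 28.9 in replicate 1 (rank 5025 of 93400) and 30.4 in replicate 2 (rank 4176 of 121684), with summits 128 bp apart. The place is 4504 bp upstream of the nearest *eya* start and 374 bp from the start of *lncRNA:CR44776*. Its window, printed above, was taken at the summit of the optimal ranking, where the signal value was 45.3 (rank 8474 of 144610). The −log10 IDR of that candidate was 0.18 in the optimal ranking and 1.6 in the conservative ranking.

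*dac* (FBgn0005677, 2L from 16466512 to 16485998, minus strand) had no candidate within 500 bp of its start in either replicate. Its strongest candidates lay in different places, in coding sequence at 31.3 in replicate 1 and in intergenic sequence at 25.4 in replicate 2. The strongest place shared by both was an intron candidate with 21.1 in replicate 1 and 21.5 in replicate 2, at rank shares of 16.3% and 15.2% of the lists. In the optimal ranking the strongest candidate of *dac* had 41.9, and 13.3% of all genes had a weaker strongest candidate or none. That share was 47.0% in replicate 1 and 17.1% in replicate 2.

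*eyg* and *toe*, neighbouring Pax genes whose products regulate eye growth, differed in their candidates. *eyg* (FBgn0000625, 3L from 12462537 to 12468021, minus strand) had the strongest candidate after that of *dan* in the optimal ranking, at 61.2 (rank 2749 of 144610), and its −log10 IDR there was 1.65. The q value there was 0.666, and in the conservative ranking the −log10 IDR was 1.1. The summit was intergenic, 10524 bp downstream of the *eyg* start. The same place gave 41.6 in replicate 1 (rank 1929 of 93400) and 23.4 in replicate 2 (rank 13453 of 121684), with summits 59 bp apart. It was the strongest candidate of *eyg* in each replicate, and *eyg* had no candidate within 500 bp of its own start in any list.

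*toe* (FBgn0036285, 3L from 12422510 to 12432668, minus strand) had a candidate at its start in both replicates. It was strong for these genes in replicate 2, at 29.0 with the summit 19 bp upstream (rank 5104 of 121684), and weak in replicate 1, at 13.1 (rank 45271 of 93400). In the optimal ranking this start candidate had 45.0 and the strongest one, in coding sequence, had 46.4. *toe* also had the highest share of replicate 1 candidates that overlapped one of replicate 2, 30 of 33.

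*danr* (distal antenna-related, FBgn0039283, 3R from 25138072 to 25139903) is the shortest of the 10 genes. Its strongest candidate in the optimal ranking, at 44.5, lay 11964 bp downstream of its start, in an exon of *lncRNA:CR46474*. The same place had 27.7 in replicate 2 (rank 6411 of 121684) but only 13.4 in replicate 1 (rank 43811 of 93400), with summits 8 bp apart. Of its 42 candidates in the optimal ranking, 20 lay in exons of that non-coding gene, which is 15792 bp long.

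**Figure D3:**
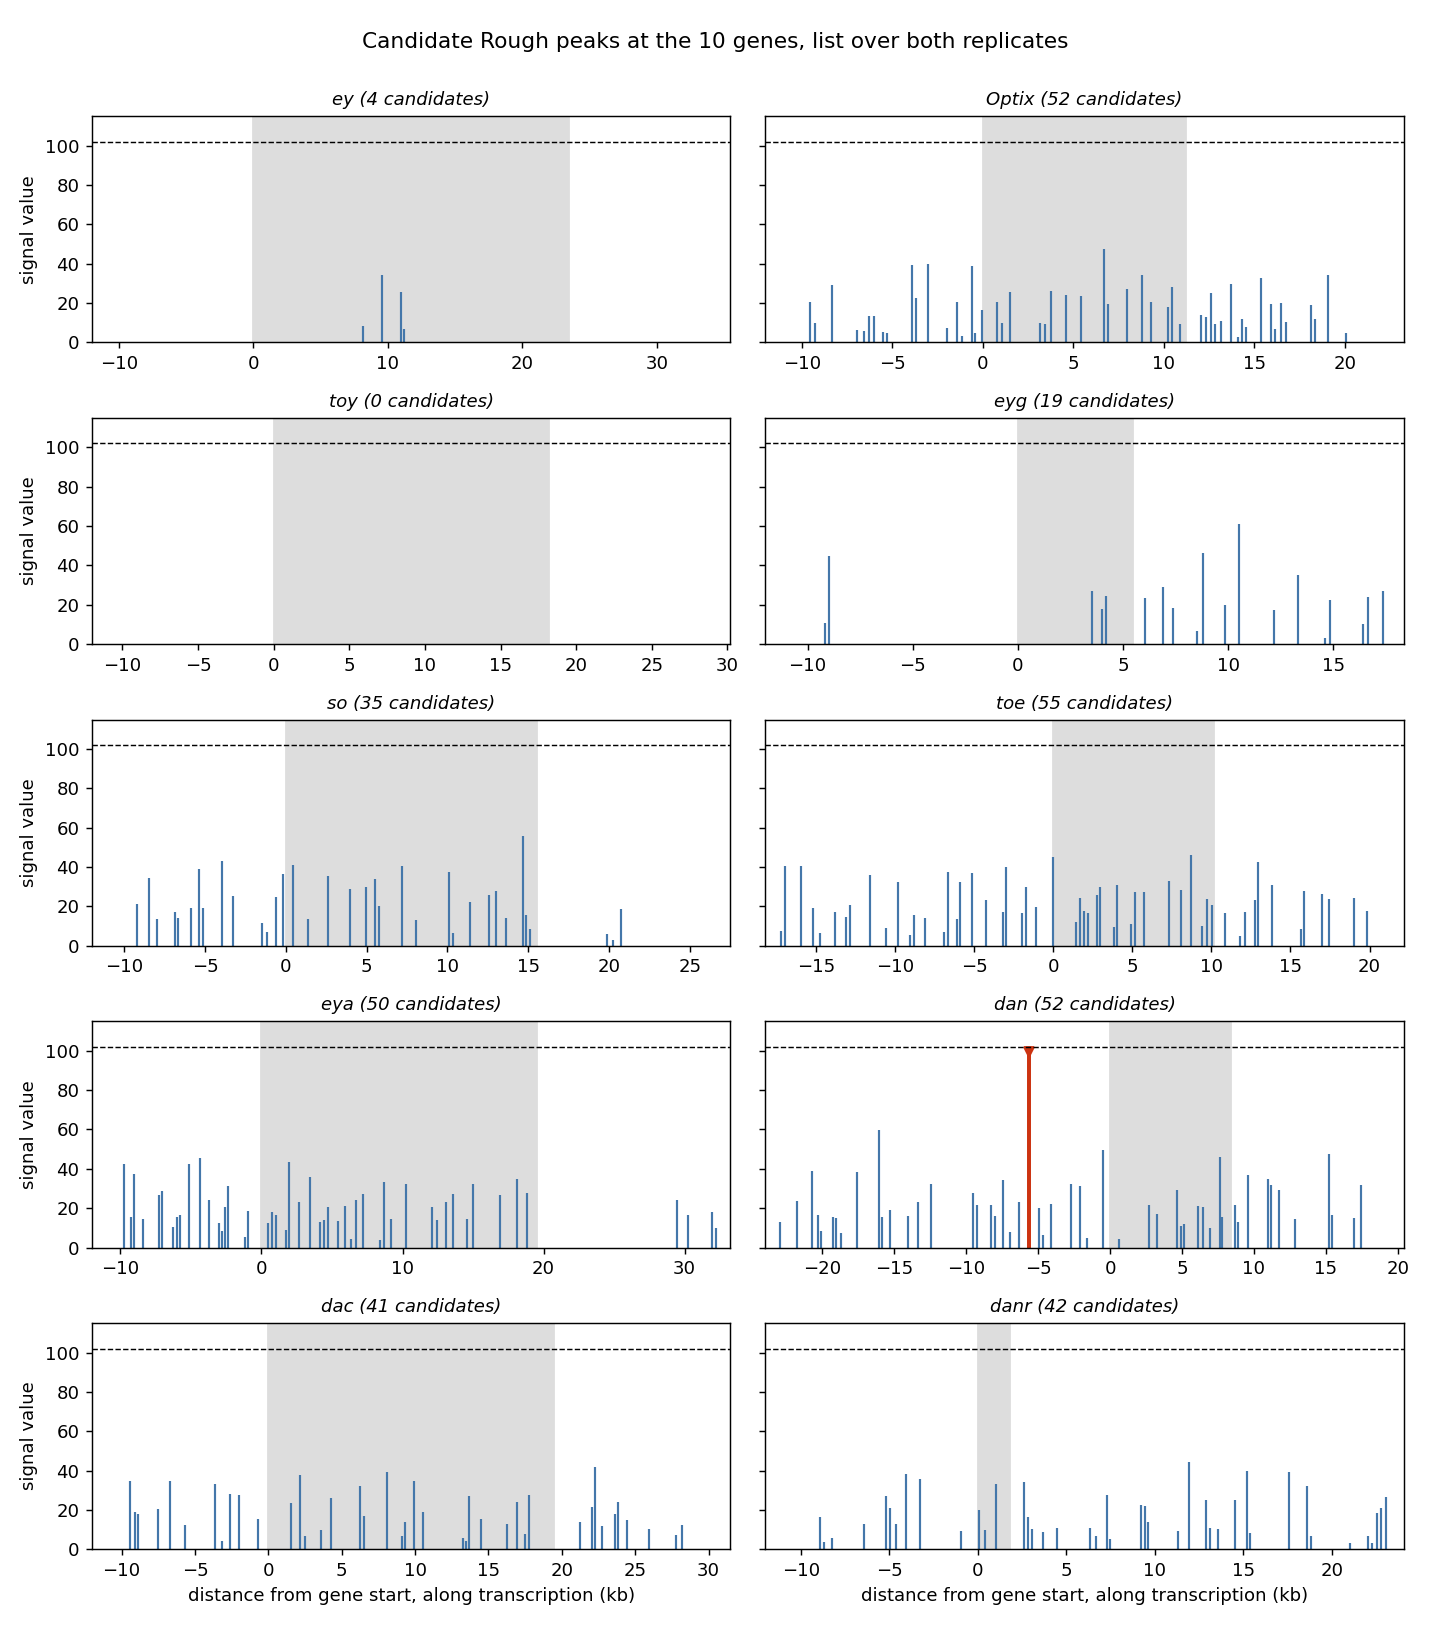
Candidate peaks of the optimal ranking at each gene, with the distance of the summit from the gene start along transcription (horizontal axis, kb) and the signal value (vertical axis). Grey marks the gene body, the dashed line the median of the optimal set (102), and the red bar with a triangle the 1 optimal-set peak, that of *dan* at 99.4; *toy* has no candidate and *ey* has 4.

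Taken by their strongest candidate, the 10 genes stood near or below the middle of all genes. In replicate 1 all 10 had a candidate, and the median of their strongest signal values was 30.1 (range 24.5 to 88.9), against 32.4 over all protein-coding genes with a candidate. In replicate 2, 8 had one, with a median of 30.0 (range 23.4 to 39.4), against 33.2. In the optimal ranking 9 had one, with a median of 46.4 (range 34.1 to 99.4), against 58.3 over all genes and 65.4 over genes of the longest class. The gene with the strongest candidate differed between replicates. It was *toy* in replicate 1, followed by *dan* and *eyg*, and *Optix* in replicate 2, followed by *dan*. Only *dan* stood above the median of all genes in both, with 79.3% of genes below it in replicate 1 and 56.2% in replicate 2. In replicate 2 the strongest candidate of *dan* was another one, at 35.0, 153 bp upstream of the start of *lobo*.

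**Figure D4:**
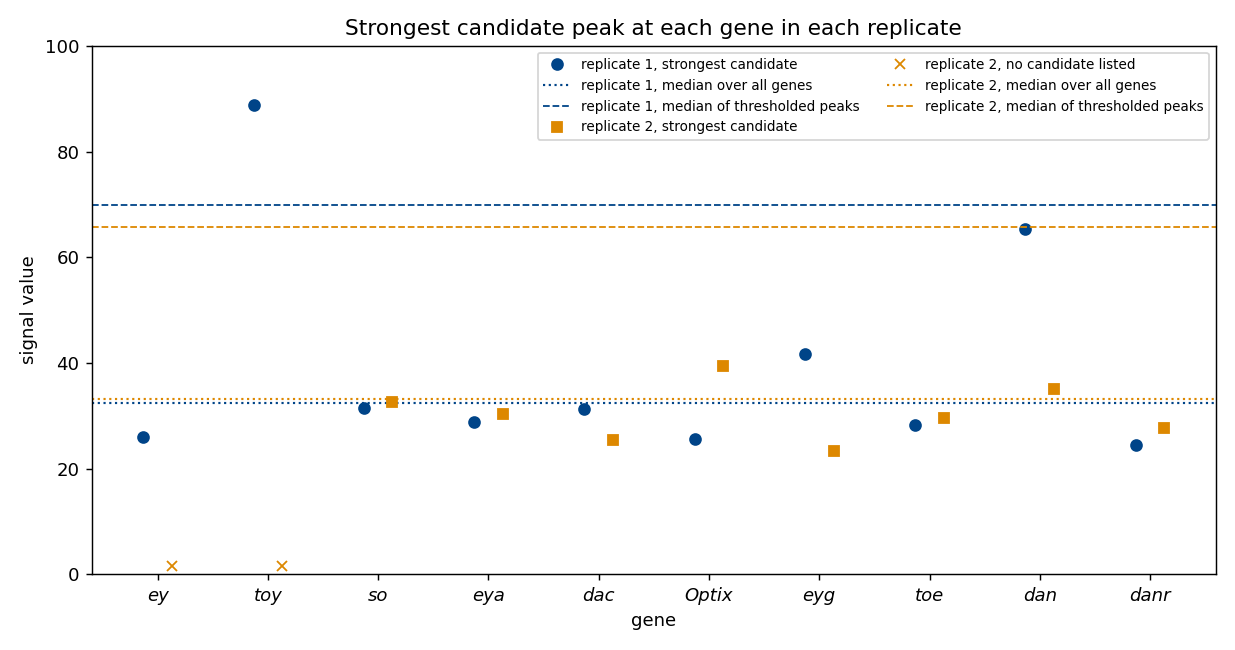
Signal value (vertical axis) of the strongest candidate at each gene in replicate 1 (circles) and replicate 2 (squares), with the median over all genes (dotted) and the median of the thresholded peaks (dashed) of each replicate. *toy* at 88.9 lies above the dashed line of replicate 1, *dan* at 65.3 lies just below it, and the other points lie between 23.4 and 41.6; crosses mark *ey* and *toy*, with no candidate in replicate 2.

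Weak candidates were about as dense at the 10 genes as elsewhere, apart from chromosome 4. Over gene body and 10 kb on each side the median of the 10 genes was 1.11 candidate summits per kb in the optimal ranking, against 1.19 over all protein-coding genes (quartiles 0.959 and 1.36). It was 0.843 per kb against 0.733 in replicate 1 and 0.962 against 1.05 in replicate 2. In replicate 1 the values ran from 0.157 per kb at *toy* to 1.02 at *dan*, and in replicate 2 from 0 at *ey* and *toy* to 1.19 at *toe*. *ey* and *toy* were at 0.322 and 0.157 per kb in replicate 1, against a median of 0.0776 for genes of chromosome 4. The 350 candidates of the 10 genes in the optimal ranking had a median signal value of 19.8, against 19.3 for all candidates on the named arms.

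**Figure D5:**
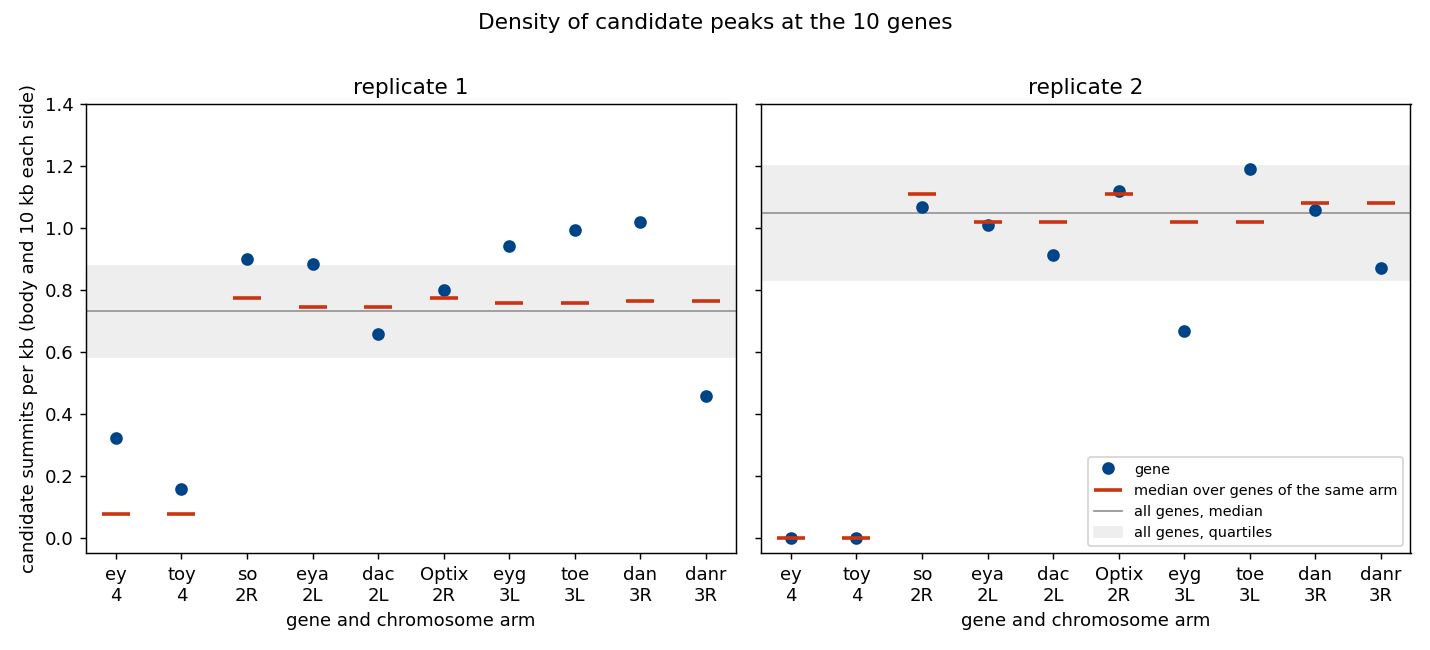
Candidate summits per kb of gene body and 10 kb on each side (vertical axis) for the 10 genes (points), in replicate 1 (left) and replicate 2 (right), with the median over genes of the same arm (red dashes) and the median and quartiles over all genes (grey). *ey* and *toy* are lowest in replicate 2, at 0, where the median of chromosome 4 is also 0; the other 8 genes run from 0.458 to 1.02 per kb in replicate 1 and from 0.667 to 1.19 in replicate 2.

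The replicates overlapped to about the usual degree at these weak candidates. Of the 261 candidates of the 10 genes in replicate 1, 168 overlapped a candidate of replicate 2 (64.4%), against 71.0% of all candidates on the named arms. In the other direction it was 151 of 289 (52.2%) against 52.0%. At *ey* and *toy* none of the 20 candidates of replicate 1 was matched. By location, promoters, here summits within 500 bp of any annotated start, held 35 of the 350 candidates in the optimal ranking, against 13.3% of all candidates. Intergenic sequence held 36.9% against 25.6%, introns 29.4% against 37.2% and coding sequence 14.3% against 20.2%. Non-coding exons held 8.57% against 0.780%, and 29 of these 30 candidates lay in *lncRNA:CR46474* beside *danr* and *lncRNA:CR45267* beside *Optix*. A candidate within 500 bp of the gene's own start was listed for 7 of the 10 genes in replicate 1, against 54.8% of all genes, and for 5 of 10 in replicate 2, against 71.2%.

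The 7 words were counted under all 350 candidates of the optimal ranking at these genes. TAATTA lay in 17 of the 350 windows (4.86%), against 4.72% of the windows of all candidates on the named arms. TGATAC, the Sine oculis type word, lay in 12 (3.43%) against 2.01%, and GAGAG, the GAGA factor word, in 40 (11.4%) against 12.4%. TTTATG, the Caudal-type word, lay in 34 (9.71%) against 9.24%. CAGGTA lay in 6 (1.71%) against 2.38%, the E-box CACGTG in 3 (0.857%) against 1.47%, and TATCGATA in 1 (0.286%) against 0.191%. All words were searched on both strands within 50 bp of the summit, and these differences were not tested.

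Genes that work with the retinal determination network were looked up in the same way. Their list was chosen with earlier results of these data known, so its shares are not independent of that choice. The list of partners holds 31 genes, 22 of them in the longest class, where 44.7% of all protein-coding genes had a peak. Of the 31 partners, 16 (51.6%) had an optimal-set peak by the same assignment, against 36.0% of all genes. For 10 of them (32.3%) a peak lay nearest to their own start, against 10.4% of all genes, and 9 (29.0%) had a peak in the gene body, against 6.01% of all genes. The strongest was at *gro*, the Groucho corepressor that binds Sine oculis family proteins, with a signal value of 233 (3R from 26042426 to 26042602) at its promoter. It was followed by *N*, the Notch receptor, at 197 in an intron, where the nearest start was that of *CG18508*. *Six4*, the third gene of the Sine oculis family in the fly, had 150 at a promoter nearest to *tzn*, and *emc*, an inhibitor of proneural factors, had 145, nearest to *hng3*. *ptc*, the Hedgehog receptor, had 143, and *ro* itself had 142 in its territory, at the promoter of *ball*. An optimal-set peak that overlapped both replicates' own lists was assigned to 0 of the 10 retinal determination genes and to 7 of the 31 partners (22.6%), against 19.5% of all genes.

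Several partner genes next to the network in the eye had no optimal-set peak. These were *ato*, *sens*, *gl*, *lz*, *hry*, *sv*, *Lim1*, *Rx*, *hbn*, *oc*, *ci*, *hh*, *exd*, *tio* and *CtBP*. *ato* is the proneural gene that Rough represses in the eye disc, and *gl* and *lz* encode factors of photoreceptor identity. *hth*, whose product holds eye progenitors in an undifferentiated state, had 4 peaks in its body, the strongest at rank 1050 of 1969, and *tsh* had 2, the strongest at 96.9 (rank 1070). *wg* had 2, up to 117, and *dpp*, the BMP ligand, had 1 at 117 in an intron. *sv*, a Pax gene that also lies on chromosome 4, had a peak only in replicate 1, with a signal value of 130, as *toy* did. *oc* likewise had one only in replicate 1 (61.2), and *hh* had one only in the conservative set (73.0). The sets of partners and retinal determination genes were not tested against each other.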

How the data were processed

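Peak lists of 2 ChIP-seq libraries of 1 group were analysed. The authors deposited 8 lists on dm6, per the labels, ranked and thresholded by IDR. The names of aligner and peak caller were not given in the sources used here. Each peak's signal value was used as deposited, and its scale is not stated. The q values are deposited as −log10 q, and where both replicates were combined some lie slightly under 0 on the log10 scale. Ranked lists also carry a deposited −log10 of the global IDR. A further 16 columns of the 2 ranked lists over both replicates match no sample's labels and were left out.

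Summits were assigned with Ensembl release 115 (BDGP6 version 6.54), without transposable elements and pseudogenes. Peak ends lay within the lengths of the arms of the sequence used, and 86 optimal-set peaks on unplaced sequence went to no gene. Ranks are by signal value within a list. A summit took the first location class that held it: promoter, then 5′ UTR, coding sequence, 3′ UTR, other exon, intron, intergenic. Overlap means at least 1 bp. The assignment and the overlap were tested on simulated data. The 10 genes, the partner list and the words were chosen with earlier results of these data known. Named are all 10 genes, the 6 partners with the highest signal value, and the genes nearest to a named peak; further partners (those with no peak, *hth*, *tsh*, *wg*, *dpp* and *sv*) were chosen after their values were seen. No test was run, since 1 group allows no comparison between samples. Alternatives were other territories, lists, signal and q limits, overlaps and windows. Python 3.11.15, numpy 2.4.6 and pandas 2.3.3 were used.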

Additional observations from a re-analysis of the deposited data

How the results depend on the processing

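The count of retinal determination genes with a peak rests on the single peak of *dan*, and changed with most settings. It was 1 of 10, with 1 peak, with 10 kb or 5 kb on each side, by nearest start, and without peaks that overlap a stronger one. It was 5 genes with 7 peaks at 20 kb, and 0 genes with 0 peaks for summits in gene bodies, in the conservative set, with peaks at or above the median signal value, and with peaks of q at most 0.05. With 1 replicate left out it ran from 0 (list of replicate 2) to 2 (list of replicate 1), for genes and for peaks alike. The share of all protein-coding genes with a peak was 36.0%, and also 36.0% without overlapped weaker peaks. It moved to 25.3% at 5 kb, 52.2% at 20 kb, 6.01% by gene body, 10.4% by nearest start, 31.9% in the conservative set, 23.9% above the median signal and 22.6% by q, and with 1 replicate left out it ran from 25.8% to 28.7%. A narrower territory or a shorter list holds fewer summits by construction. The median density of candidates at the 10 genes was 1.11 per kb, 1.23 per kb in gene bodies alone, and 0.843 to 0.962 per kb in the ranked list of 1 replicate, where the cause was not tested. The 1 optimal-set peak of the 10 genes did not overlap both replicates' lists under any overlap rule tried. It held no TAATTA within 50 bp of the summit, within 100 bp or in the whole peak. Among the 1883 optimal-set peaks on the named arms, 10.2%, 16.9% and 23.1% held the word in these windows, so most peaks lacked it too. No paired analysis was possible because there is 1 group. The lists hold no read totals, so a site missing from a list was not listed at this unknown depth, which does not show that it is absent.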
